A study of Homo sapiens with 9 samples.

Results

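Type I interferons signal through a receptor made of IFNAR1 and IFNAR2, whose cytoplasmic tails hold the kinases TYK2 and JAK1. The kinases phosphorylate STAT2 among others, which joins IRF9 in ISGF3, the complex that binds interferon-stimulated response elements. IRF3 and IRF7 act at the other end of the pathway, where sensors of viral nucleic acid switch them on to transcribe the interferon genes themselves, and IRF1 drives further antiviral and antigen-presentation genes. IRF7, IRF9 and STAT2 are interferon-stimulated genes in their own right, so the amount of machinery in a resting cell rises and falls with tonic signalling.

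The transcripts of IFNAR1, IFNAR2, JAK1, TYK2, STAT2, IRF1, IRF3, IRF7 and IRF9 were followed in 786O cells. These 9 genes were chosen by name from the 38021 genes of the count table. 786O is an established human line of clear cell renal carcinoma without functional VHL, so HIF2α is stable in all groups under ordinary culture conditions. A lentiviral pLKO.1 vector gave the cells an shRNA that was a control (shControl) or was directed at ARNT (shARNT), the usual partner of HIF2α, or at BMAL1 (shBMAL1), a related clock protein. All groups went through puromycin selection as populations and had no drug or interferon treatment named in the labels. The labels give 3 biological replicates per group, and name 1 construct for each, so an effect of the hairpin apart from its target cannot be told apart from the knockdown. Nothing in the labels says whether the replicates were separate infections or separate dishes, so the p-values measure the spread between these samples.

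Libraries held 33793045 to 35444735 reads. The targeted genes fell in their own groups, ARNT to 0.52 of the control under shARNT (log2 fold change −0.94, DESeq2 adjusted p 8.81e-35) and BMAL1, listed as ARNTL, to 0.43 under shBMAL1 (−1.23, adjusted p 2.51e-25). Each was also called lower, by less, in the other knockdown. ARNT was at 0.86 of the control under shBMAL1 (−0.23, adjusted p 0.0187), lost without shControl replicate 2 (−0.16, 0.162) or shBMAL1 replicate 2 (−0.19, 0.109). ARNTL was at 0.83 under shARNT (−0.26, adjusted p 0.0294), lost without shControl replicate 2 (−0.23, 0.15) or shARNT replicate 3 (−0.19, 0.22). All 12 renal markers were present, with a summed normalised read count of 210237 to 248154 over the 9 libraries. VIM, with a mean of 97980 in shControl, gave the largest part of this sum. Single markers moved both ways, 4 called lower and 5 higher under shARNT, and 4 lower and 4 higher under shBMAL1. Of all tested genes 19% were lower and 16.5% higher under shARNT, and 19.4% and 17.4% under shBMAL1. CDH6 went from 13874 in shControl to 27963 in shARNT and 45691 in shBMAL1, and MME from 1291 to 575 in shARNT. The 11 leukocyte markers summed to 15.6 to 30.4 and CD3E, CD2, MS4A1, LYZ and CLEC4C had no read in any library. The 5 endothelial markers summed to 7.8 to 22 with CDH5 at 0. Mitochondrial genes took 5.46 to 7.14% of reads in shControl, 7.59 to 8.74% in shARNT and 8.71 to 9.66% in shBMAL1. With those genes left out the calls for all 9 genes were the same in every comparison.

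The promoter windows of IRF9, STAT2 and IRF1 are shown because IRF9 was the most lowered gene of ISGF3, STAT2 changed little, and IRF1 is a known early target of interferon gamma. They run 5′ to 3′ from 250 bases before the RefSeq start site to 50 bases after it (GRCh38.p14). Capitals in the IRF9 window (chr14:24161015-24161314, plus strand) mark, in order, the E-box CACGTG that BMAL1 with CLOCK is known to bind, a gamma-activated site core TTCNNNGAA and the short response element form GAANNGAAA. Capitals in the IRF1 window (chr5:132490724-132491023, minus strand) mark a gamma-activated site core. The STAT2 window (chr12:56360058-56360357, minus strand) held none of the 6 motifs searched and has no capitals.
IRF9: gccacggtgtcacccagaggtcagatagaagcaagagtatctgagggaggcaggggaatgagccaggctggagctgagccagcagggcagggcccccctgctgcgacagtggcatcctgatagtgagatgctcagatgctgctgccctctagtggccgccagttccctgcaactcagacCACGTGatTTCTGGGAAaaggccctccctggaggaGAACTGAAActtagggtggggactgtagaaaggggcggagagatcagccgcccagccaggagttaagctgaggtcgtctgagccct
IRF1: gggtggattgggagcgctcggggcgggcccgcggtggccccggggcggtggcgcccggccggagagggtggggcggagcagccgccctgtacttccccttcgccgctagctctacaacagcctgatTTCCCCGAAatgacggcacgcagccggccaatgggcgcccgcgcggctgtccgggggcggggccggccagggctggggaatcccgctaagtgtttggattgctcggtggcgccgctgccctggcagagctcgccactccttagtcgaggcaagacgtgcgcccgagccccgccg
STAT2: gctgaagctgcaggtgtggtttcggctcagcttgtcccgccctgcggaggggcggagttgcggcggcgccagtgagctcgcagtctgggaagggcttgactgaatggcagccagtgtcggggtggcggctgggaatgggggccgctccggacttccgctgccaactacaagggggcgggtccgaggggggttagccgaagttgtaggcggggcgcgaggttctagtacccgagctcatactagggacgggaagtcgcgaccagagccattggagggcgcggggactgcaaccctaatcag

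In the IRF9 window the E-box lay at −71 to −66 from the start site, the gamma-activated core at −63 to −55 and the short response element at −36 to −28. The gamma-activated core of IRF1 lay at −124 to −116. Both strands were searched, and of 35116 RefSeq promoter windows 7.26% held CACGTG, 7.66% TTCNNNGAA, 7.66% GAANNGAAA and 3.57% the longer response element core GAAANNGAAA, which was in no window of these genes. The short form differs from the longer one in its spacing and was added after the IRF9 window had been read. Cores of the hypoxia response element were common, ACGTG in 21.4% and GCGTG in 36.5% of windows, and each CACGTG contains ACGTG on both strands. IRF1, TYK2, 1 of 2 IFNAR1 windows and 1 of 3 JAK1 windows held at least 1 of these cores, and so did the E-box of IRF9. A match is a description of letters and not a bound site. IFNAR2, IRF3 and IRF7 were not in the promoter table.

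All 9 genes were measured well enough to be tested in every comparison. Under shARNT 8 of the 9 were lower and IFNAR1 was higher, with a median log2 fold change of −0.19. Under shBMAL1 STAT2, IRF1, IRF3, IRF7 and IRF9 were lower and IFNAR1 higher, with a median of −0.20, and IFNAR2, JAK1 and TYK2 were not called. The counts need the background beside them, because both knockdowns changed much of the transcriptome. At the DESeq2 adjusted p threshold of 0.1, 35.4% of 15164 tested genes were called under shARNT (19% lower and 16.5% higher) and 36.8% of 19036 under shBMAL1 (19.4% lower and 17.4% higher), with medians of 0.00 and 0.02. Among genes whose mean reached 1000 normalised read counts, where 7 of the 9 lie, 49.1% were called under shARNT and 54.2% under shBMAL1. The shControl libraries did not overlap the knockdown libraries for 9 of 9 genes under shARNT and 5 of 9 under shBMAL1, against 43.9% and 45.2% of all tested genes. Both knockdowns were set against the same 3 control libraries, so the comparisons are not independent of each other.

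**Figure D1:**
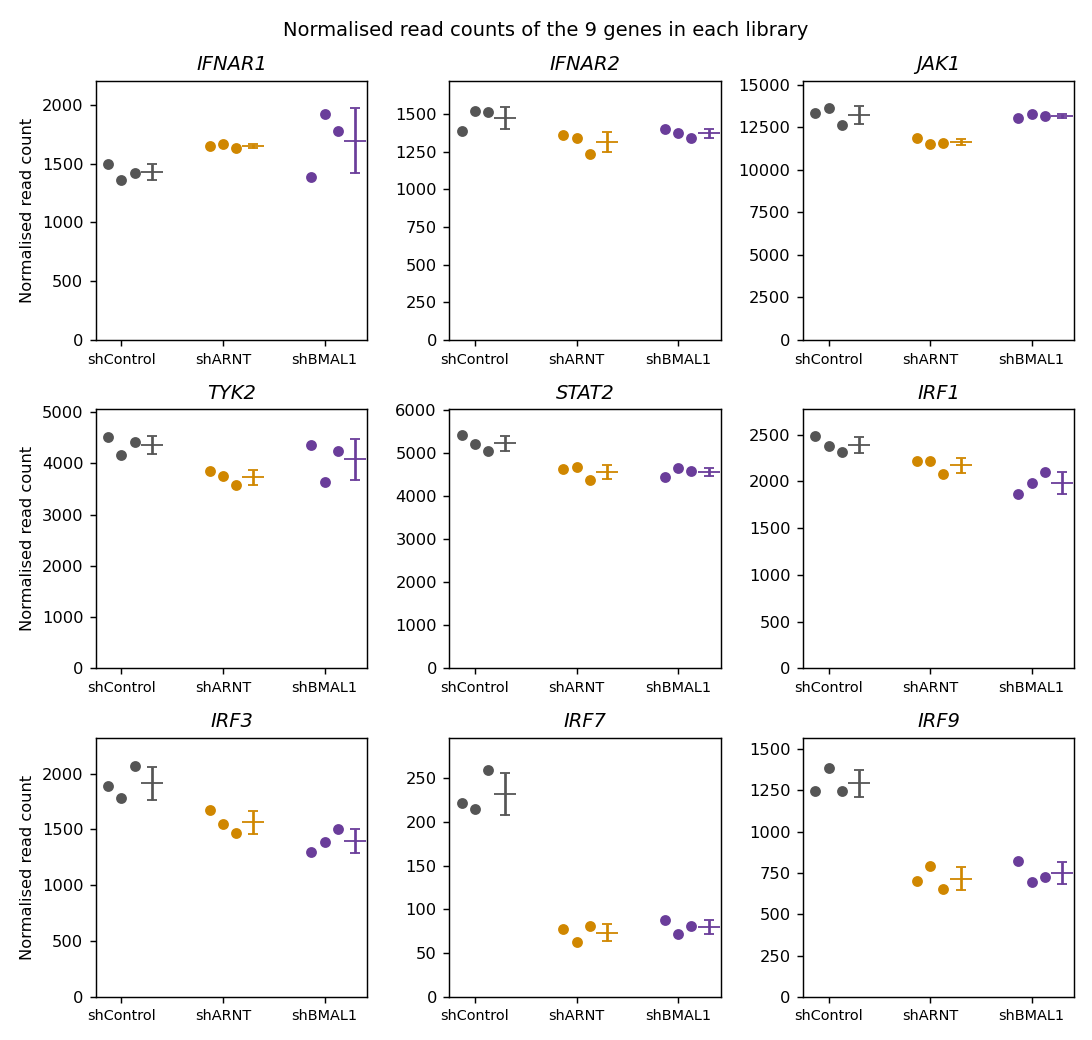
Normalised read counts (vertical axes, starting at 0) of the 9 genes in the 3 shControl, 3 shARNT and 3 shBMAL1 libraries, as points, with the mean and SD of each group beside them. IRF7 and IRF9 lie far below the control in both knockdowns, while IFNAR1 lies at 1633 to 1666 in shARNT against 1359 to 1495 in shControl.

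IRF7, the interferon-inducible factor that amplifies the production of type I interferon, showed the greatest relative fall of the 9 genes (chromosome 11, 612553 to 615983, minus strand, GRCh37). It had 221, 215 and 259 normalised read counts in shControl, 77, 62.8 and 80.5 in shARNT, and 87.4, 71.6 and 81.3 in shBMAL1. Every knockdown library was thus below every control library, and the knockdown groups overlapped each other. Its level fell to 0.32 of the control under shARNT (95% interval 0.24 to 0.41, log2 fold change −1.65, SE 0.19, DESeq2 adjusted p 5.24e-16) and to 0.35 under shBMAL1 (0.27 to 0.45, −1.53, SE 0.19, adjusted p 3.58e-14). Among 12935 genes with a mean of at least 50, IRF7 ranked 37 from the most lowered under shARNT and 79 under shBMAL1. Whether shBMAL1 and shARNT differ in IRF7 could not be resolved, as the direct log2 fold change was 0.12 with a 95% interval of −0.37 to 0.61. In bulk RNA, fewer cells that express a gene and less of its RNA per cell cannot be told apart.

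IRF9, the DNA-binding subunit of ISGF3, was the next most lowered (chromosome 14, 24630443 to 24637252, plus strand). Its counts were 1244, 1387 and 1246 in shControl, 699, 790 and 655 in shARNT, and 822, 695 and 726 in shBMAL1. The control libraries again stood wholly above both knockdowns. It fell to 0.55 of the control under shARNT (0.49 to 0.63, log2 fold change −0.85, SE 0.09, DESeq2 adjusted p 4.64e-19) and to 0.58 under shBMAL1 (0.51 to 0.66, −0.79, SE 0.10, adjusted p 8.34e-15). The direct comparison gave 0.06 (interval −0.15 to 0.28). The annotation places 23.9% of the exon bases of IRF9 in another protein-coding gene model on the same strand. That model has no row in the count table under its current name, so the reads of IRF9 may include some of it. The falls of IRF7 and IRF9 were called under all 15 alternatives in both knockdowns, the 1.5-fold minimum included.

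STAT2, the ISGF3 subunit that carries its main activation domain, changed far less (chromosome 12, 56735381 to 56753987, minus strand). It had 5423, 5222 and 5068 counts in shControl, 4632, 4681 and 4390 in shARNT, and 4463, 4657 and 4585 in shBMAL1. Neither knockdown overlapped the control and the knockdowns overlapped each other. It fell to 0.87 of the control in both, by 0.19 on the log2 scale under shARNT (SE 0.05, DESeq2 adjusted p 0.00234) and by 0.20 under shBMAL1 (SE 0.06, adjusted p 0.00732). The direct difference was −0.00 (interval −0.13 to 0.12).

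IRF9 and STAT2 moved by unequal amounts, which was followed as a ratio of normalised read counts within each library. The ratio of IRF9 to STAT2 was 0.229, 0.266 and 0.246 in shControl, 0.151, 0.169 and 0.149 in shARNT, and 0.184, 0.149 and 0.158 in shBMAL1. Both knockdowns lay wholly below the control, with means of 0.247 ± 0.0181, 0.156 ± 0.0108 and 0.164 ± 0.0181 (SD, n = 3, exact two-sided permutation p 0.1 for each knockdown). That p is the smallest 3 against 3 libraries can give. Gene length cancels when 1 ratio is compared between groups, and the ratio describes transcripts and not protein complexes.

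**Figure D2:**
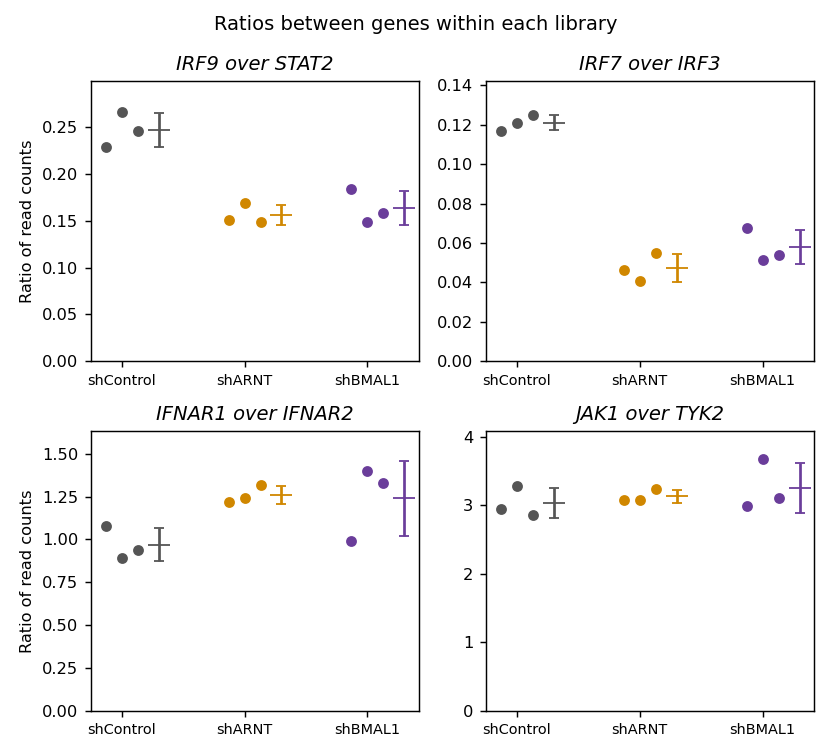
Ratios of normalised read counts of 4 gene pairs within each library (vertical axes, starting at 0) in shControl, shARNT and shBMAL1, with the mean and SD of the 3 libraries beside the points. IRF9 over STAT2 has means of 0.247, 0.156 and 0.164, while JAK1 over TYK2 stays between 2.86 and 3.67 in all 9 libraries.

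IRF3, the constitutive factor that TBK1 activates downstream of nucleic acid sensors, fell in both knockdowns (chromosome 19, 50162826 to 50169132, minus strand). It had 1887, 1783 and 2070 counts in shControl, 1670, 1548 and 1471 in shARNT, and 1294, 1390 and 1506 in shBMAL1. The control stood apart from both, and the highest shBMAL1 library was above the lowest shARNT library. The fall was 0.29 on the log2 scale under shARNT (SE 0.08, DESeq2 adjusted p 0.00128) and 0.46 under shBMAL1 (SE 0.09, adjusted p 2.41e-06), to 0.82 and 0.73 of the control. The direct comparison gave −0.16 (adjusted p 0.159), which passed the threshold without shBMAL1 replicate 3 (−0.22, adjusted p 0.0741). IRF3 shares 734 exon bases (19.3%) with BCL2L12 on the opposite strand, its deposited values were fractional in 8 of 9 libraries, and the strand setting of the counting is not stated, so reads of these genes may be mixed. BCL2L12, an apoptosis-related gene, fell by 0.21 on the log2 scale under shARNT (adjusted p 0.0435), and shBMAL1 gave −0.18 (adjusted p 0.112). The first call was lost without shControl replicate 1 (−0.22, adjusted p 0.1) or 3 (−0.17, 0.209) and without shARNT replicate 1 (−0.16, 0.234) or 3 (−0.20, 0.153), and the second passed without shBMAL1 replicate 1 (−0.23, 0.0484). The ratio of IRF7 to IRF3 went from 0.121 ± 0.00385 to 0.0471 ± 0.00712 in shARNT and 0.0577 ± 0.00864 in shBMAL1 (SD, n = 3, exact permutation p 0.1), with no overlap with the control.

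IRF1, which interferon gamma induces, had 2486, 2375 and 2309 counts in shControl, 2218, 2217 and 2078 in shARNT, and 1869, 1984 and 2098 in shBMAL1 (chromosome 5, 131776132 to 131844411, minus strand). The control did not overlap either knockdown. The fall under shBMAL1 was 0.27 on the log2 scale (SE 0.08, DESeq2 adjusted p 0.00205). The fall under shARNT was smaller (−0.14, SE 0.06, adjusted p 0.0964) and was lost without shControl replicate 1 (−0.11, adjusted p 0.337) or 2 (−0.14, 0.182) and without shARNT replicate 1 (−0.15, 0.132), 2 (−0.15, 0.151) or 3 (−0.10, 0.345). This call held under only 4 of 15 alternatives. Knockdowns were not shown to differ (−0.13, interval −0.28 to 0.02). An antisense RNA covers 22.9% of its exon bases and has no row in the count table under its current name, and older names were not searched.

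The estimates of the receptor chains had opposite signs under shARNT, with the fall of IFNAR2 close to the threshold (DESeq2 adjusted p 0.0893). IFNAR1, the chain that binds TYK2, had 1495, 1359 and 1422 counts in shControl, 1653, 1666 and 1633 in shARNT, and 1384, 1918 and 1781 in shBMAL1 (chromosome 21, 34696692 to 34732170, plus strand). The shARNT libraries were all above the control, while shBMAL1 replicate 1 lay among the control libraries. IFNAR1 rose under shARNT (0.21, SE 0.07, DESeq2 adjusted p 0.0101). Its rise under shBMAL1 (0.25, SE 0.11, adjusted p 0.0622) was lost without shControl replicate 2 (0.21, adjusted p 0.212) or 3 (0.24, 0.151) and without shBMAL1 replicate 2 (0.15, 0.357) or 3 (0.21, 0.201), and held under 8 of 15 alternatives. The direct difference was 0.04 (interval −0.17 to 0.24).

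IFNAR2, the high-affinity chain that binds JAK1, had 1389, 1519 and 1514 counts in shControl, 1359, 1344 and 1236 in shARNT, and 1398, 1375 and 1343 in shBMAL1 (chromosome 21, 34577587 to 34637980, plus strand). The shARNT libraries were below the lowest control library by a small margin, and the shBMAL1 libraries overlapped the control. The fall under shARNT (−0.16, SE 0.08, DESeq2 adjusted p 0.0893) was lost without shControl replicate 2 (−0.14, adjusted p 0.274) or 3 (−0.14, 0.253) and without shARNT replicate 1 (−0.19, 0.107), 2 (−0.18, 0.147) or 3 (−0.12, 0.351), and held under 6 of 15 alternatives. Under shBMAL1 the change was −0.11 (interval −0.26 to 0.05). A readthrough model of IFNAR2 with IL10RB shares 14.7% of the exon bases. The ratio of IFNAR1 to IFNAR2 was 0.97 ± 0.0952 in shControl, 1.26 ± 0.055 in shARNT (SD, n = 3, exact permutation p 0.1, no overlap) and 1.24 ± 0.217 in shBMAL1 (exact permutation p 0.2, overlapping).

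JAK1, the kinase shared by type I, II and III interferon receptors, was the member in which the knockdowns differed (chromosome 1, 65298906 to 65533437, minus strand). It had 13318, 13664 and 12631 counts in shControl, 11858, 11509 and 11588 in shARNT, and 13036, 13303 and 13157 in shBMAL1. The shARNT libraries were below all others, and the shBMAL1 libraries lay within the range of the control. JAK1 fell by 0.18 on the log2 scale under shARNT (SE 0.05, DESeq2 adjusted p 0.00169), was not called under shBMAL1 (−0.01, interval −0.12 to 0.11) and was higher in shBMAL1 than in shARNT (0.18, SE 0.06, adjusted p 0.00751). In this direct comparison 35.3% of 18181 tested genes were called (18% lower and 17.3% higher in shBMAL1), 52.8% of those with a mean of at least 1000, and groups did not overlap for 43.9%. JAK1 was the 1 gene of the 9 called there and the 1 gene whose groups did not overlap.

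TYK2, the kinase at IFNAR1, had 4509, 4163 and 4423 counts in shControl, 3854, 3747 and 3577 in shARNT, and 4353, 3629 and 4251 in shBMAL1 (chromosome 19, 10461209 to 10491284, minus strand). The shARNT libraries were below the control, and in shBMAL1 replicate 2 alone was below it. TYK2 fell under shARNT (−0.23, SE 0.06, DESeq2 adjusted p 0.000734), and under shBMAL1 the change was −0.10 (interval −0.26 to 0.06). The direct difference of 0.13 (adjusted p 0.232) passed the threshold without shBMAL1 replicate 2 (0.21, adjusted p 0.028). The ratio of JAK1 to TYK2 was 3.03 ± 0.224 for shControl, 3.13 ± 0.0955 for shARNT and 3.25 ± 0.362 for shBMAL1 (SD, n = 3, exact permutation p 0.5 for each knockdown), with overlapping groups.

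**Figure D3:**
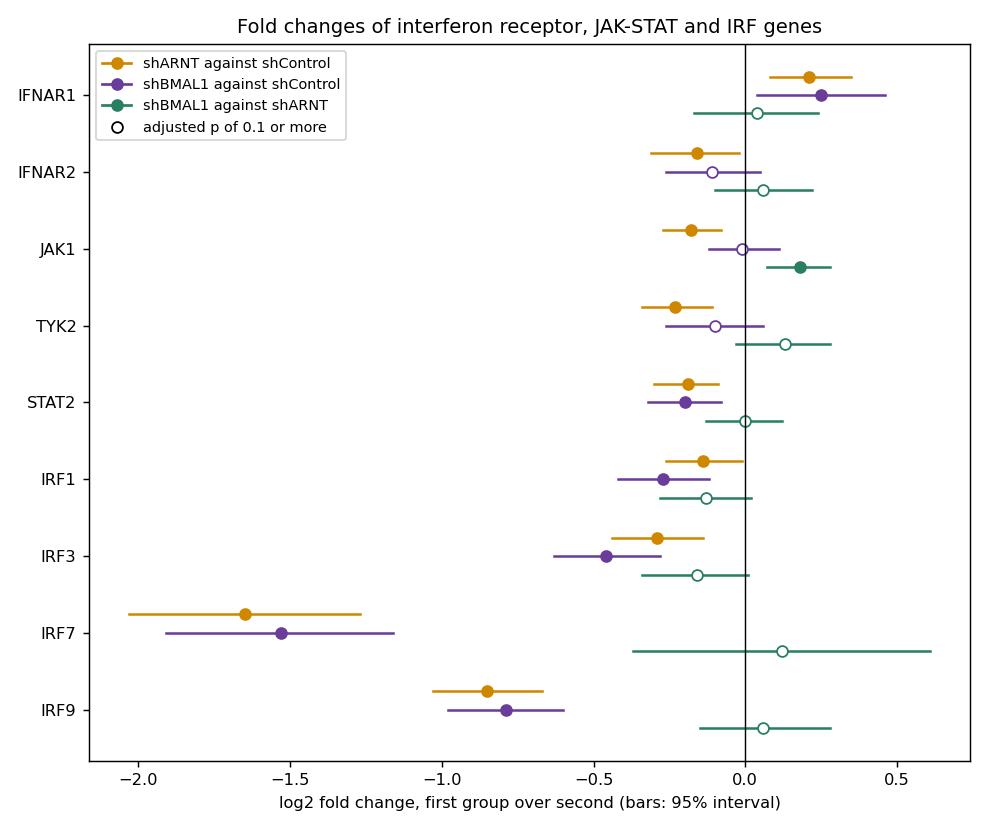
Log2 fold changes (horizontal axis) of the 9 genes in the 3 comparisons, with 95% intervals from DESeq2 as bars and open points where the adjusted p was 0.1 or more. IRF7 (−1.65 and −1.53) and IRF9 (−0.85 and −0.79) stand apart from the other genes, and JAK1 is the 1 member with a filled point for shBMAL1 against shARNT.

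Levels of different genes were compared per kilobase of exon. In shControl, over all exons of each gene, JAK1 was highest at 1002 ± 39.9 normalised read counts per kilobase (SD, n = 3), followed by STAT2 at 563 ± 19.2, TYK2 at 512 ± 21.2 and IRF3 at 504 ± 38.3. IRF9 (200 ± 12.6) and IRF1 (195 ± 7.31) came next, then IFNAR2 (106 ± 5.35), IFNAR1 (90.9 ± 4.36) and IRF7 (88.7 ± 9.07). The SD ranges of TYK2 and IRF3, of IRF9 and IRF1, and of IFNAR1 and IRF7 overlapped, so this length does not resolve the order within those pairs. In shARNT IRF7 was at 28.1 ± 3.58 and IRF9 at 110 ± 10.6 per kilobase, and in shBMAL1 at 30.7 ± 3.05 and 116 ± 10.2. With the length of the canonical transcript in place of all exons the values rose unequally. IRF3 (1200 ± 91.1) then lay beside STAT2 (1189 ± 40.5) and above TYK2 (1029 ± 42.5), and IRF9 (795 ± 50.2) above IRF1 (673 ± 25.2). IFNAR1 (235 ± 11.3) then lay above IRF7 (120 ± 12.3), which was lowest, while JAK1 stayed highest (2593 ± 103).

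The interferon genes themselves were almost silent. Of 21 ligand genes, 15 had no read in any library, and none reached a mean of 10 normalised read counts. IFNB1 had 1 read in a single control library. IFNL1, a type III interferon that signals through IL10RB and the same STAT proteins, had 2, 3 and 4 reads in shControl and none in the 6 knockdown libraries. These counts sit near the 3 reads that a count of 0 still allows per library (counting error only), and DESeq2 gave no adjusted p. IFNE had 8 reads over the control libraries, 14 over shARNT and 25 over shBMAL1, and it was tested only in the comparisons with shBMAL1 and not called.

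Interferon-stimulated genes that ISGF3 is known to drive were mostly lower. Of 40 tested genes, 36 were lower and 1 higher under shARNT (median log2 fold change −0.61), and 35 were lower and 1 higher under shBMAL1 (median −0.82). Over all tested genes 19% were lower and 16.5% higher under shARNT, and 19.4% lower and 17.4% higher under shBMAL1. OAS2, a sensor of double-stranded RNA, went from 1142 ± 56.1 to 77.7 ± 12.6 in shARNT and 66.3 ± 10.2 in shBMAL1 (SD, n = 3, −3.87 and −4.11, DESeq2 adjusted p 6.84e-181 and 2.19e-175). Also among the most lowered were EPSTI1 (−2.69 with shARNT and −2.68 with shBMAL1), IFI27 (−2.63 and −2.16), MX2, a restriction factor (−2.53 and −3.42), and OAS1 (−2.53 and −3.00). The 1 gene higher was TRIM5, a retroviral restriction factor, which rose under shARNT (0.24, adjusted p 0.00243). Its rise under shBMAL1 (0.22, adjusted p 0.0436) was lost without shControl replicate 1 (0.22, adjusted p 0.103), 2 (0.22, 0.107) or 3 (0.20, 0.152) and without shBMAL1 replicate 2 (0.16, 0.233) or 3 (0.19, 0.148), which left 0 genes of the list higher. In the direct comparison 11 of the 40 were lower in shBMAL1 and 5 higher, against 18% and 17.3% of all tested genes, with 3 higher without shARNT replicate 1, 2 or 3 or without shBMAL1 replicate 2.

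CD274 fell and GBP2 rose in both knockdowns among genes known as targets of IRF1 and interferon gamma. Of 18 tested, 9 were lower and 1 higher under shARNT (median −0.15), and of 21 tested, 11 were lower and 1 higher under shBMAL1 (median −0.35), beside 19% lower and 16.5% higher of all genes for shARNT and 19.4% and 17.4% for shBMAL1. CD274, which encodes the checkpoint ligand PD-L1, went from 513 ± 70.8 to 239 ± 21.1 and 200 ± 34.8 (SD, n = 3, −1.10 and −1.36, DESeq2 adjusted p 2.59e-14 and 6.15e-17). After CD274, the most lowered of the called genes under shARNT were TAPBP (−0.53), which acts in peptide loading of MHC class I, and the proteasome activator PSME1 (−0.35). Under shBMAL1 they were NLRC5 (−0.87), a transactivator of MHC class I genes, and TAP2 (−0.56), a peptide transporter chain. TAPBP also fell under shBMAL1 (−0.39). GBP2, an interferon-induced GTPase, rose in both, from 170 ± 5.55 to 338 ± 51.1 and 349 ± 52.5 (1.00 and 1.03, adjusted p 2.76e-09 and 1.08e-09). CXCL9 had no read in any library.

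Upstream of IRF3 and IRF7, the RIG-I-like sensors DDX58 and IFIH1 fell in both knockdowns. Of 23 tested genes for sensors, adaptors and kinases, 9 were lower and 2 higher under shARNT (median −0.15), and of 24 tested, 11 were lower and 3 higher under shBMAL1 (median −0.24). All tested genes had 19% lower and 16.5% higher under shARNT, and 19.4% and 17.4% under shBMAL1. DDX58, which encodes RIG-I, went from 1090 ± 20.2 to 605 ± 45.3 and 639 ± 86.2 (SD, n = 3, −0.85 and −0.77, DESeq2 adjusted p 7.38e-20 and 8.16e-12). IFIH1, which encodes MDA5, changed by −0.83 and −1.01, and TRIM25, the ubiquitin ligase that acts on RIG-I, by −0.59 and −0.85. TBKBP1, an adaptor of TBK1, rose by 0.46 on the log2 scale under shARNT (adjusted p 0.0102), which was lost without shARNT replicate 1 (0.38, adjusted p 0.111), and by 0.53 under shBMAL1 (adjusted p 0.00205). CREBBP, a coactivator, rose under shARNT (0.22), also lost without shARNT replicate 1 (0.14, adjusted p 0.117), so that 0 genes of the list were then higher. TLR3, an endosomal sensor of double-stranded RNA, fell under shARNT (−0.48, adjusted p 0.000196) and was higher in shBMAL1 than in shARNT (0.78, adjusted p 3.4e-11). Under shBMAL1 TLR3 rose against shControl (0.29, adjusted p 0.0174), which was lost without shControl replicate 3 (0.25, adjusted p 0.118), as did AZI2 (0.34), which was lost without shControl replicate 2 (0.27, adjusted p 0.113) or shBMAL1 replicate 2 (0.26, adjusted p 0.134).

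Among feedback inhibitors, 5 of 21 tested genes were lower and 4 higher under shARNT (median −0.08), and 7 were lower and 0 higher under shBMAL1 (median −0.15). The shARNT counts are near the share of all tested genes (19% lower and 16.5% higher), and for shBMAL1 that share was 19.4% and 17.4%. USP18, an interferon-induced inhibitor that acts at IFNAR2, went from 644 ± 21.5 to 366 ± 21.1 and 261 ± 16.6 (SD, n = 3, −0.81 and −1.31, DESeq2 adjusted p 5.08e-13 and 1.38e-26). SOCS2, a cytokine-induced inhibitor, fell by 1.72 and 0.98 on the log2 scale, and PTPN11, a phosphatase, fell by 0.38 under shBMAL1. PIAS1, an inhibitor of STAT signalling, rose under shARNT (0.29, adjusted p 0.000867). Further calls under shARNT did not hold when single libraries were left out. SOCS3 (0.40, adjusted p 0.0697) was lost without shControl replicate 1 (0.30, 0.302) or 2 (0.37, 0.198) and without shARNT replicate 1 (0.30, 0.317) or 3 (0.40, 0.166). PTPN2 (0.24, adjusted p 0.0912) was lost without shControl replicate 1 (0.22, 0.257) or 3 (0.19, 0.302) and without shARNT replicate 2 (0.17, 0.402) or 3 (0.26, 0.158), and IRF2BPL (−0.25, 0.0133) without shControl replicate 3 (−0.18, 0.142). Without shControl replicate 1 the list had 2 genes higher under shARNT, and without shControl replicate 2 it had 2 higher under shBMAL1.

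IL10RB, STAT5B and STAT6 fell in both knockdowns among the other receptors, kinases, STATs and IRFs. Of 15 tested genes 6 were lower and 2 higher under shARNT (median −0.03), with 3 lower when any single control library was left out, and of 16 tested 6 were lower and 3 higher under shBMAL1 (median −0.26), with 3 lower without shControl replicate 3. Of all tested genes 19% were lower and 16.5% higher for shARNT, and 19.4% and 17.4% for shBMAL1. IL10RB, the shared chain of the type III interferon receptor, fell in both (−0.24 and −0.34, DESeq2 adjusted p 0.00307 and 0.000201), as did STAT5B (−0.24 and −0.39). STAT6 also fell in both (−0.30 and −0.24, adjusted p 5.14e-08 and 0.000863). STAT5A, at 57 ± 15.8 counts in shControl and 27 ± 13.1 in shBMAL1 (SD, n = 3), changed by −1.08 (adjusted p 0.0222), lost without shControl replicate 3 (−0.86, 0.189) and without shBMAL1 replicate 1 (−0.85, 0.131) or 2 (−0.93, 0.117). IFNGR1 and IFNGR2 encode the chains of the interferon gamma receptor. IFNGR1 rose under shARNT (0.21, adjusted p 0.0398), lost without shControl replicate 1 (0.21, 0.115) or 2 (0.17, 0.216) or shARNT replicate 2 (0.17, 0.226). IFNGR2 rose under shBMAL1 (0.25, adjusted p 0.0165), lost without shBMAL1 replicate 2 (0.19, 0.134). Under shARNT IFNGR2 was called lower (−0.14, adjusted p 0.0936), lost without shControl replicate 1 (−0.15, 0.169), 2 (−0.12, 0.279) or 3 (−0.16, 0.143) or shARNT replicate 3 (−0.08, 0.447). The number of genes higher under shARNT was 0 without shControl replicate 1 or shARNT replicate 2, and 1 without shControl replicate 2 or shARNT replicate 1.

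IL6ST and OSMR rose in both knockdowns among receptors of other cytokines that use JAK kinases. Of 11 tested, 3 were lower and 2 higher under shARNT (median 0.02), and of 13 tested, 4 were lower and 3 higher under shBMAL1 (median −0.49). With so few genes these counts are near the shares of all tested genes, 19% lower and 16.5% higher for shARNT and 19.4% and 17.4% for shBMAL1. IL6ST, the signal chain shared by the IL-6 family, rose in both knockdowns (0.23 with shARNT, DESeq2 adjusted p 0.000201, and 0.46 with shBMAL1, 2.37e-06), as did OSMR, the oncostatin M receptor (0.15 and 0.34). IL7R (−1.21), IL22RA1 (−1.32), IL15RA (−0.95) and IL4R (−0.49, adjusted p 2.8e-10) fell under shBMAL1, where IL27RA rose (0.87). Under shARNT IL4R (−0.18, adjusted p 0.0215) was lost without shControl replicate 2 (−0.15, 0.148) or shARNT replicate 3 (−0.13, 0.174), and IL13RA1 (−0.20, 0.0161) without shARNT replicate 1 (−0.13, 0.145). IL15RA under shARNT (−0.24, 0.0473) was lost without shControl replicate 2 (−0.22, 0.168) or 3 (−0.24, 0.129) or shARNT replicate 1 (−0.19, 0.225), and without shControl replicate 2 the list had 1 gene lower.

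**Figure D4:**
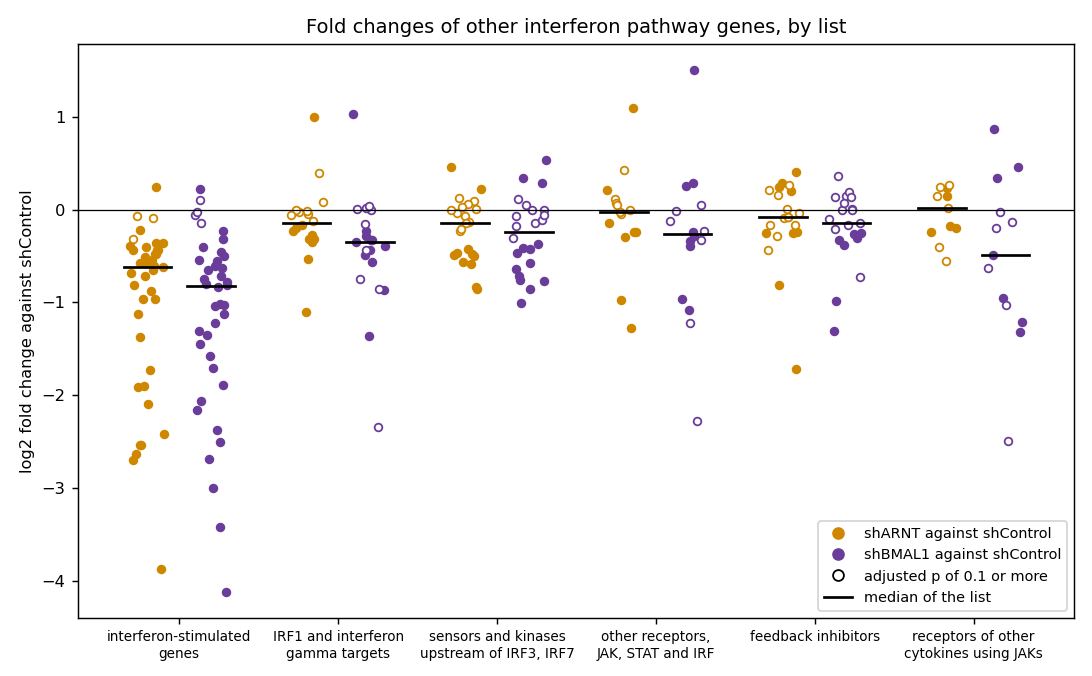
Log2 fold changes against shControl (vertical axis) of the tested genes in 6 lists of the interferon pathway, for shARNT and shBMAL1, with filled points where the DESeq2 adjusted p was under 0.1 and a black line at the median of each list. The interferon-stimulated genes have medians of −0.61 and −0.82, the feedback inhibitors −0.08 and −0.15, the other interferon-pathway receptors, kinases, STATs and IRFs −0.03 and −0.26, and the receptors of other cytokines 0.02 and −0.49.

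Genes whose pattern over the 9 libraries was most like that of each member were found by Pearson r on log2 of normalised counts plus 1, among 11822 genes with a mean of at least 100. For IRF7 these included IL32 (r = 0.993), LOC100506411 (0.99) and ANGPTL4 (0.989), and for IRF9 POMGNT1 (0.996) and TMEM173 (0.99), which encodes the sensor adaptor STING. IRF7 and IRF9 had an r of 0.944 with each other. STAT2 was most like CEP170 (0.978), IRF1 like CENPJ (0.976), IRF3 like ATAD2B (0.981) and JAK1 like SP3 (0.985). TYK2 was most like DSCR3 (0.957) and IFNAR1 like DHX36 (0.961), and PLBD2 (0.946) was among the genes most like IFNAR2. The 9 points share their groups and libraries, so a step between shControl and the knockdowns alone gives a high r.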

How the data were processed

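RNA was sequenced from 786O cells expressing shControl, shARNT or shBMAL1 (3 libraries each). The deposited values were estimated counts per gene on a linear scale. The methods of the study name SeqMan NGen, GRCh37 and ArrayStar, while the submitters' processing notes list STAR and hg38, and which applies to the table was not resolved. The gene annotation and strand setting were not given in the sources used here. A stand-in of 0.009 filled 46.3% of the cells and was set to 0. Fractional values (6.14% of the others) were rounded, and 53 rows with a repeated name were merged, which left 38021 genes. In 28 rows the symbol had become a date, and these stayed in the fits unnamed.

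DESeq2, the Wald test, Benjamini-Hochberg adjustment and a cutoff of 0.1 on the adjusted p were taken from the study. DESeq2 1.42.0 (R 4.3.3) was run two-sided on each pair of groups, on its own 6 libraries, with median-of-ratios size factors and independent filtering, which were choices made here. Normalised read counts used size factors over all 9 libraries. The fits were also run on simulated counts with the same spread for every gene and raised genes only. That run checked the code and does not measure how the calls behave in these data. The members and gene lists were chosen with earlier results of these data known, so they are not independent evidence. Named list genes were the 3 most lowered and 3 most raised called genes of each list in each knockdown with a mean of at least 50. Some genes that this rule names are not reported here. BCL2L12 was added as the overlapping neighbour of IRF3, and IFNL1 after its values were seen. Alternatives were edgeR 4.0.16 (quasi-likelihood test), TMM size factors, at least 10 counts in 3 libraries, no independent filtering, an adjusted p under 0.05, a 1.5-fold minimum, a single fit of 9 libraries, a replicate block, mitochondrial genes left out, and each library left out in turn. Positions and exon overlaps came from GENCODE v44 lifted to GRCh37, and promoter sequences from RefSeq on GRCh38.p14.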

Additional observations from a re-analysis of the deposited data

How the results depend on the processing

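Counts of called members and of called genes stayed within 1.5 times the reported value under 14 of 15 alternatives against shControl. A 1.5-fold minimum left 1200 genes under shARNT, 2606 under shBMAL1 and 2064 between the knockdowns, and 2, 2 and 0 of the 9 members, because most of these changes are small. With single libraries left out, members called ranged from 7 to 8 under shARNT, 5 to 6 under shBMAL1 and 1 to 2 between the knockdowns. Genes called ranged from 4174 to 4508, 5744 to 6347 and 5087 to 5928.

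Signs that turned were of changes near 0, each with a DESeq2 adjusted p over 0.7 or, for edgeR, 0.986. JAK1 under shBMAL1 was 0.02 without shControl replicate 2 and 0.00 without shBMAL1 replicate 1, in a range of −0.04 to 0.02. Between the knockdowns IFNAR1 was −0.06 and −0.00 without shBMAL1 replicate 2 or 3 (highest 0.16), IRF9 was −0.01 without shBMAL1 replicate 1 (highest 0.14), and BCL2L12 was −0.02 and −0.01 without replicate 1 of either knockdown (highest 0.10). STAT2 there was 0.00 with edgeR, the count filter and a single fit of 9 libraries, and 0.01, 0.01 and 0.02 without shARNT replicate 1 or 2 or shBMAL1 replicate 1 (lowest −0.03). Over all alternatives, fits of the 9 members kept their direction and call 356 times, 36 lost a call, 2 gained 1 and 11 turned sign. Besides the libraries left out, the 0.05 threshold and the 1.5-fold minimum, the call of IRF1 under shARNT was lost with the count filter, no independent filtering, the single fit of 9 libraries and the replicate block. That of IFNAR2 under shARNT was lost with no independent filtering and the replicate block, and that of IFNAR1 under shBMAL1 with the replicate block.

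The replicate numbers did not pair the libraries: deviations of same-numbered libraries had r of −0.15, −0.135 and 0.0737 for shARNT with shControl, −0.154, 0.105 and 0.0574 for shBMAL1 with shControl, and 0.0591, −0.0104 and 0.0333 for the knockdowns. With the replicate block 4150, 5742 and 5388 genes and 7, 5 and 1 members were called. Levels per kilobase depend on the exon length chosen, and depth limits statements on the interferon genes.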
